A study of Mus musculus with 36 samples.

Results

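The interferon regulatory factor (IRF) genes Irf1, Irf2, Irf3, Irf4, Irf5, Irf7, Irf8 and Irf9 were followed by RNA-seq in mouse haematopoietic stem and progenitor cells (HSPCs), labelled as Taf1 knockout or control, while they differentiated in culture. The members are the rows of these symbols in both deposited expression tables, 8 of 24411 genes. Knockout HSPCs came from bone marrow of a Taf1 conditional knockout mouse model, and control HSPCs carry the genotype label WT. Taf1 encodes a large subunit of the general transcription factor TFIID, which binds core promoters. Cells of each genotype were taken at day 0, at day 3 in SCF with IL-3, and at days 5 and 7 of 2 courses. The macrophage course used GM-CSF with M-CSF and then M-CSF alone, and the granulocyte course used SCF, IL-3 and G-CSF and then G-CSF alone. This gave 12 groups of 3 libraries, 36 in all, and both courses share the libraries of days 0 and 3. The labels give neither the Cre driver, the time of deletion and the deleted part of Taf1 nor the age and sex of the mice. They do not say that the libraries of a group came from separate mice, and the p-values cover no more than the spread among the libraries at hand.

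IRF proteins share a DNA-binding domain that recognises GAAA repeats, the interferon-stimulated response element (ISRE). IRF3 and IRF7 are phosphorylated by TBK1 and IKK epsilon after a sensor detects viral nucleic acid, and they switch on type I interferon genes. IRF9 joins STAT proteins downstream of the interferon receptor to form ISGF3, which turns on antiviral genes, Irf7 among them. IRF1 activates and IRF2 mostly represses at the same elements, and IRF5 acts below Toll-like receptors on genes of inflammatory cytokines in macrophages. IRF4 and IRF8 bind weakly alone and work with PU.1 (Spi1) at composite elements of the EICE type or with BATF. In the bone marrow IRF8 is known for promoting monocyte and dendritic cell fates over granulocytes, and IRF4 for its roles in dendritic cells, alternatively activated macrophages and B cells.

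Because TFIID works at the core promoter, the promoters of the members were read for a TATA box and for the family's own and STAT elements. The windows are RefSeq sequences on GRCm38.p6, 250 bases before to 50 bases from the annotated start, 5′ to 3′ on the gene's strand, and all 8 members matched with 11 windows between them. Both strands were searched for the ISRE core GAAANNGAAA, the EICE GGAANNGAAA, the STAT element GAS TTCNNNGAA and the TATA box TATAAA. Of 32851 promoters of the same length, 3.44% held the ISRE core, 2.72% the EICE, 8.3% a GAS and 13.6% a TATA box. The 5 windows with a match are printed with the matched letters in capitals.
Irf7 promoter, chr7:141266375-141266674, minus strand: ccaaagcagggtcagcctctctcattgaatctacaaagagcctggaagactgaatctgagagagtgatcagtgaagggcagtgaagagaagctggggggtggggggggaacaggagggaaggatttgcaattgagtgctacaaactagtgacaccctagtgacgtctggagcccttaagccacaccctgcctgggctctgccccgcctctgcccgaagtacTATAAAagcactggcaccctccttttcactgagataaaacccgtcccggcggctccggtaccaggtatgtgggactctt
Irf4 promoter, chr13:30748983-30749282, plus strand: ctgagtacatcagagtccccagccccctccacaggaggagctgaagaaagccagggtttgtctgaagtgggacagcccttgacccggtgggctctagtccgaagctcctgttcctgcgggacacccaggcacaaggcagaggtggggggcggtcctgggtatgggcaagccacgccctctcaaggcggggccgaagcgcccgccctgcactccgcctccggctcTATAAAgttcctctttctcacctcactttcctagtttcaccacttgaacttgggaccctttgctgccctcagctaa
Irf8 promoter, chr8:120736108-120736407, plus strand: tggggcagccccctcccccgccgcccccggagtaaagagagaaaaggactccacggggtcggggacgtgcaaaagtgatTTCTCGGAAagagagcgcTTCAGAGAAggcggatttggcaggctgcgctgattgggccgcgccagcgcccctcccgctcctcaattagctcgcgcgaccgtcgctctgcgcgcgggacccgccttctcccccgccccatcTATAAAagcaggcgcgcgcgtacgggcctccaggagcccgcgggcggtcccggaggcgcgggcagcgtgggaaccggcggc
Irf1 promoter, chr11:53769764-53770063, plus strand: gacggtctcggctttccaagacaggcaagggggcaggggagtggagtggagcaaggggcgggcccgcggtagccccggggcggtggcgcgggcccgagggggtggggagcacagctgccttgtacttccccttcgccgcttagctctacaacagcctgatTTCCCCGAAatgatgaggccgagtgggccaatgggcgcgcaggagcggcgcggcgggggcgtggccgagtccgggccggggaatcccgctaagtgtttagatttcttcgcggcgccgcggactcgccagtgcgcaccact
Irf2 promoter, chr8:46739495-46739794, plus strand: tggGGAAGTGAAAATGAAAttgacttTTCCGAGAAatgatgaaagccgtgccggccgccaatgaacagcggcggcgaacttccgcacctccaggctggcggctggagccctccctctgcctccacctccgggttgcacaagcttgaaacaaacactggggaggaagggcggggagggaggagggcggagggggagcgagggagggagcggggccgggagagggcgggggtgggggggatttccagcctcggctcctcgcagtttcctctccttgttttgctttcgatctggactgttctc
Irf7, Irf4 and Irf8 were the members with a TATA box, at -29, -26 and -31 from the start. Irf8 also held 2 GAS matches, at -171 and -153, and Irf1 held 1 at -90. Irf2 was the only member with an ISRE core, at -241; it overlaps an EICE at -247, and a GAS lies at -224. The windows of Irf3, Irf5 and Irf9 and the second windows of Irf1 and Irf8 held none of these letters. A match describes the letters of the window only. In mm10 with GENCODE M21, the other genes span chr11:53770014-53778374 (Irf1), chr8:46739732-46847458 (Irf2), chr7:44997648-45002848 (Irf3), chr13:30749226-30766976 (Irf4), chr6:29526625-29541871 (Irf5), chr8:120736358-120756694 (Irf8) and chr14:55603571-55610030 (Irf9), all on the plus strand.

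Values are in TPM, a level per transcript length that can be compared between genes. The read depth of a library cannot be read from them and is unknown. Pearson's r across genes between replicates was 0.973 to 0.997. Taf1 itself lay between 5.94 and 9.06 TPM in knockout libraries and between 10.2 and 16.3 TPM in control libraries at the 5 stages other than day 3. At day 3 its levels overlapped, 8.66 to 10.3 TPM in knockout and 9.62 to 11.5 TPM in control libraries, a log2 difference of -0.17 ± 0.08 (SE, limma adjusted p = 0.0711). Taf1 thus does not set the labelled genotypes apart at day 3. The cultures were mixed by their markers. Day 7 libraries of the granulocyte course held all 9 macrophage markers at 1 TPM or more, with a summed level of 1138 to 1205 TPM in knockout and 1341 to 2222 TPM in control libraries, against 2301 to 2469 TPM in knockout and 2132 to 3112 TPM in control libraries of the macrophage course. At day 5 the summed level of the 10 granulocyte markers overlapped between the courses. In knockout libraries it was 186969 to 245347 TPM in the macrophage and 184926 to 226764 TPM in the granulocyte course. In control libraries it was 55762 to 162062 TPM in the macrophage and 60163 to 158663 TPM in the granulocyte course. At day 3 these markers summed to 130081 to 144139 TPM in knockout libraries, against 75780 to 90340 TPM in control libraries. S100a8 and S100a9 made up most of these day 3 sums (12.1% to 13.5% and 6.58% to 7.96% of all TPM). Camp (411 TPM in knockout and 1221 TPM in control cells) and Ltf (1470 and 2279 TPM) had lower means in knockout cells, and Mpo and Elane higher ones. The summed level of the 5 monocyte markers was lower in knockout libraries at every stage (331 to 970 TPM over all knockout libraries, 708 to 1976 TPM over all controls). Csf1r, in that list, was higher in knockout cells at day 0 (46.8 TPM against 34.9 TPM in controls). Siglech, a defining marker of plasmacytoid dendritic cells, was near 0 throughout, at most 1.44 TPM. All 7 markers of these cells summed to 6.73 to 10.02 TPM in knockout and 22.7 to 40.87 TPM in control libraries at day 3. At day 5 of the macrophage course they summed to 1.92 to 2.24 TPM in knockout and 3.61 to 50.03 TPM in control libraries. At day 5 of the granulocyte course the sums were 3.66 to 4.23 TPM in knockout and 3.73 to 43.37 TPM in control libraries. At days 0 and 7 they were at most 18.73 TPM. Fewer cells of a type and less RNA per cell cannot be told apart in such bulk libraries, and the part of cell makeup in the results below was not tested.

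The family was dominated by different members at different stages. At day 0 Irf8 led with 134 TPM in knockout and 143 TPM in control cells, 46.5% and 56.4% of the summed TPM of the 8 members. By this level it stood above 92.3% and 93.2% of the genes that reached 1 TPM. By day 3 it had dropped to 10.7 TPM in knockout and 13.7 TPM in control cells, and no single member led by as much. Irf5 was then the most abundant member at day 7 of the macrophage course, with 131 TPM in knockout and 97.4 TPM in control cells, 41.2% and 43.6% of the family sum. It also ranked first at day 7 of the granulocyte course, with 60.6 TPM in knockout and 73.4 TPM in control cells (27.6% and 35.5%). In those knockout cells its libraries overlapped the libraries of Irf1, the next member. Irf2 and Irf4 were the least abundant members in nearly every group, Irf2 within 2.89 to 5.95 TPM and Irf4 within 0.0867 to 8.72 TPM by group means.

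**Figure D1:**
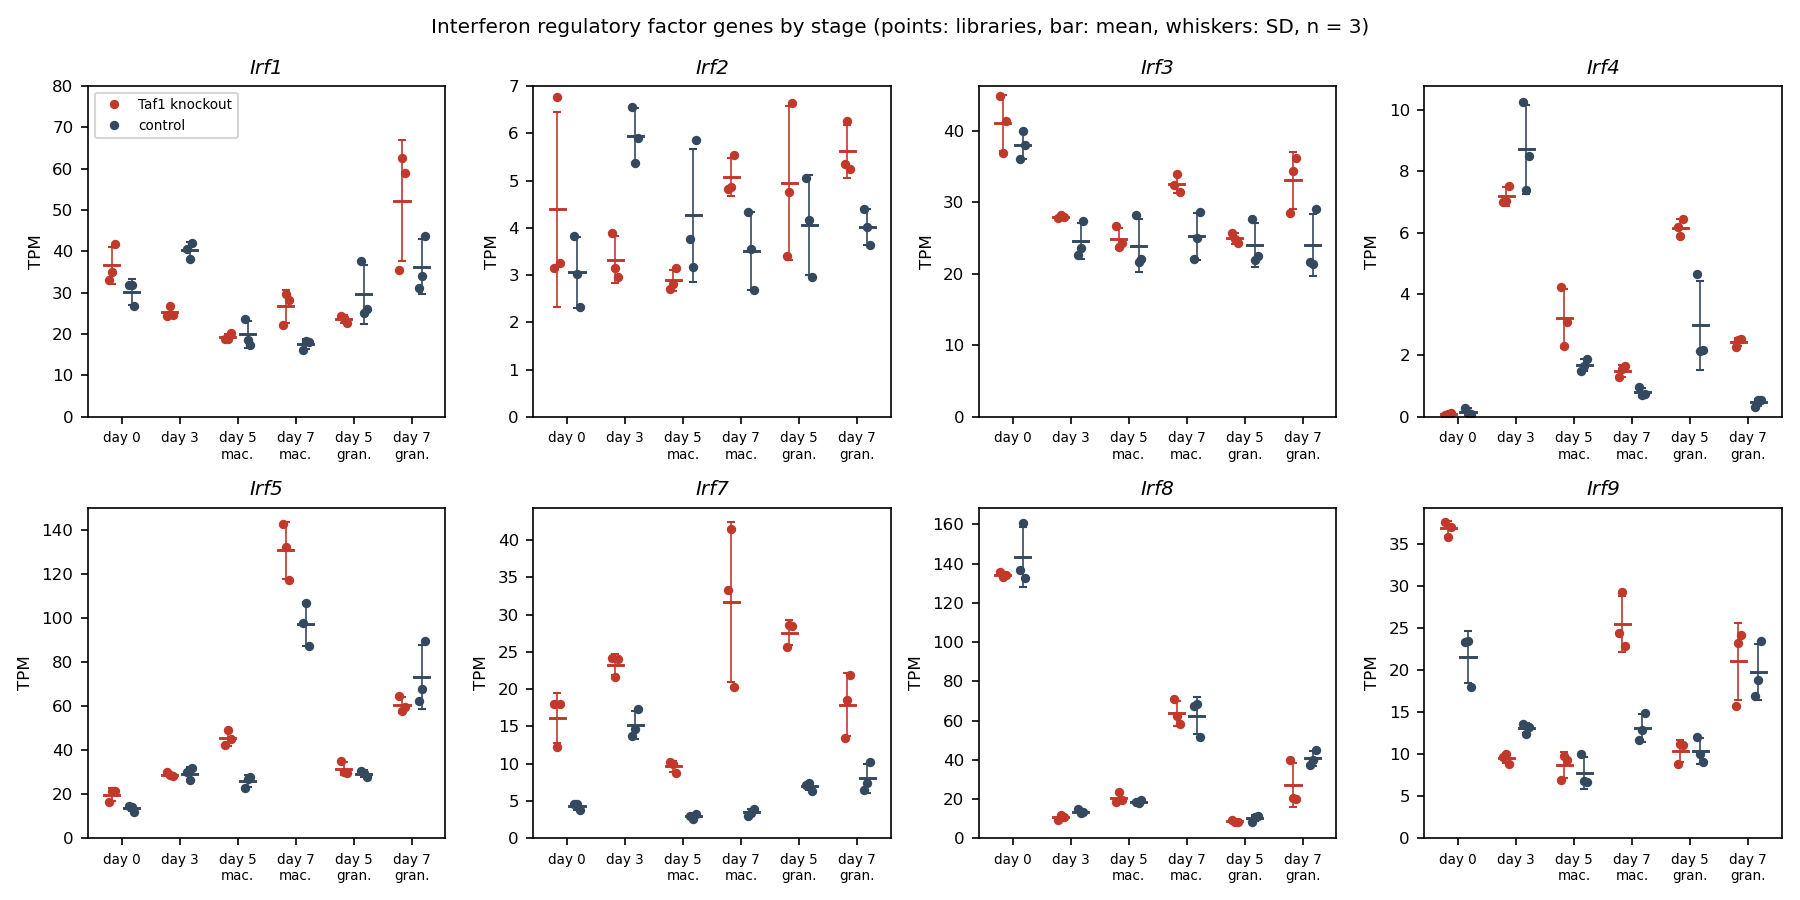
TPM of the 8 IRF genes in every library by stage, knockout left of control, 1 panel a gene with its own axis from 0; points are libraries, bars the mean and SD of 3. Irf7 is higher in the 3 knockout than in the 3 control libraries at each of the 6 stages, and Irf8 is far lower at day 3 than at day 0 in both genotypes.

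The spread across the 12 group means was widest for Irf4, whose highest mean was 101 times its lowest, followed by Irf8 (16.4), Irf7 (10.7) and Irf5 (9.55), and narrowest for Irf3 (1.71) and Irf2 (2.06). The summed level of the 8 genes was 289 TPM in knockout and 254 TPM in control cells at day 0, with libraries that did not overlap. At day 3 the sum was lower in knockout cells, 136 against 151 TPM in control cells, again without overlap. It was 318 TPM in knockout and 224 TPM in control cells at day 7 of the macrophage course. Irf7 held 20.0% of the sum in knockout and 5.92% in control cells at day 5 of the granulocyte course, and 9.97% and 1.56% at day 7 of the macrophage course. Within that last pair of groups Irf7 stood above 67.1% of expressed genes in knockout and above 14.3% in control cells.

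**Figure D2:**
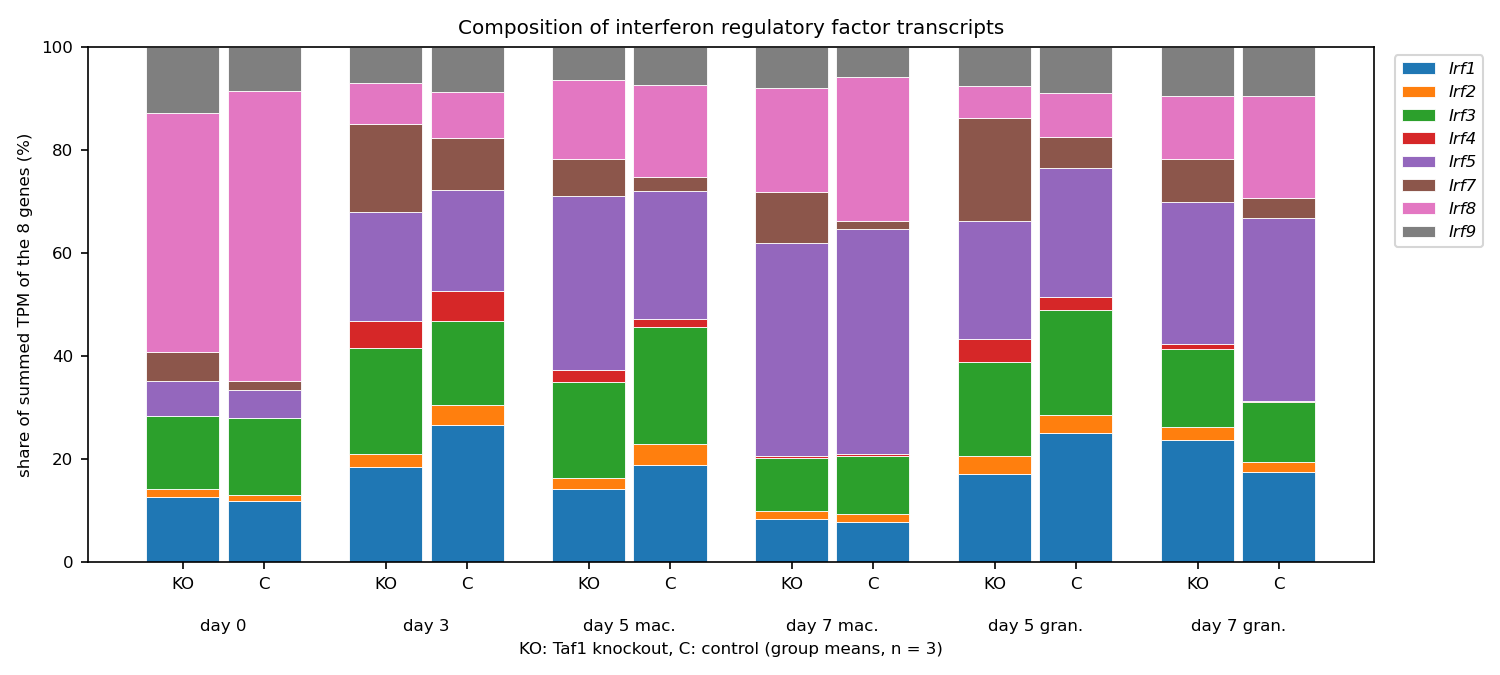
Share of the summed TPM of the 8 IRF genes held by each, as stacked group means in percent, knockout left of control at each stage. Irf8 holds 46.5% in knockout and 56.4% in control cells at day 0, and Irf5 holds 41.2% and 43.6% at day 7 of the macrophage course.

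Knockout was compared with control at each stage with limma on log2(TPM + 1), a scale that understates the change of genes with low TPM, with p-values adjusted over all genes tested. At day 0, 3 members were higher in knockout cells (Irf5, Irf7 and Irf9) and none lower. Of all genes tested 23.3% passed there, 13.1% higher and 10.2% lower. At day 3, 4 members were lower (Irf1, Irf2, Irf8 and Irf9) and 1 higher (Irf7). Of all genes 53.2% passed at that stage, 26.7% lower and 26.5% higher, so 5 of 8 is near that background. Day 5 of the macrophage course had 3 members higher (Irf4, Irf5 and Irf7) and none lower, where 43.0% of all genes passed, 5.11% higher and 37.9% lower. Its day 7 had 6 higher (Irf1, Irf3, Irf4, Irf5, Irf7 and Irf9) and none lower, where 39.9% passed, 27.4% higher and 12.5% lower. Day 5 of the granulocyte course had 2 higher (Irf4 and Irf7) and none lower, where 32.0% passed, 9.20% higher and 22.8% lower. Its day 7 had 4 higher (Irf1, Irf3, Irf4 and Irf7) and 1 lower (Irf8), where 44.1% passed, 32.1% higher and 12% lower. The member median at day 7 of the macrophage course was 0.46 log2, against 0.12 over all genes, and at day 3 it was -0.28, against -0.01 over all genes.

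TPM sums to a fixed total, and after scaling each library by the median of its gene ratios the median over all genes moved by more than 0.1 log2 at 3 stages: at day 5 of the macrophage course it was -0.02 instead of -0.23, at day 7 of that course -0.01 instead of 0.12, and at day 7 of the granulocyte course -0.01 instead of 0.17. The split of passing genes then became 2212 higher and 2379 lower instead of 611 and 4532, 2227 and 2565 instead of 3274 and 1495, and 2500 and 2845 instead of 3825 and 1425. At day 5 of the granulocyte course it became 2197 and 2603 instead of 1095 and 2711, and at day 0 1313 and 1746 instead of 1568 and 1222. Irf7 passed as higher at all 6 stages under this scaling, with log2 differences of 0.54 to 2.66. With the scaling Irf3, Irf8 and Irf9 passed as higher at day 5 of the macrophage course (6 members instead of 3), Irf3 and Irf5 no longer passed at its day 7, and at day 7 of the granulocyte course Irf1 no longer passed and Irf5 passed as lower.

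**Figure D3:**
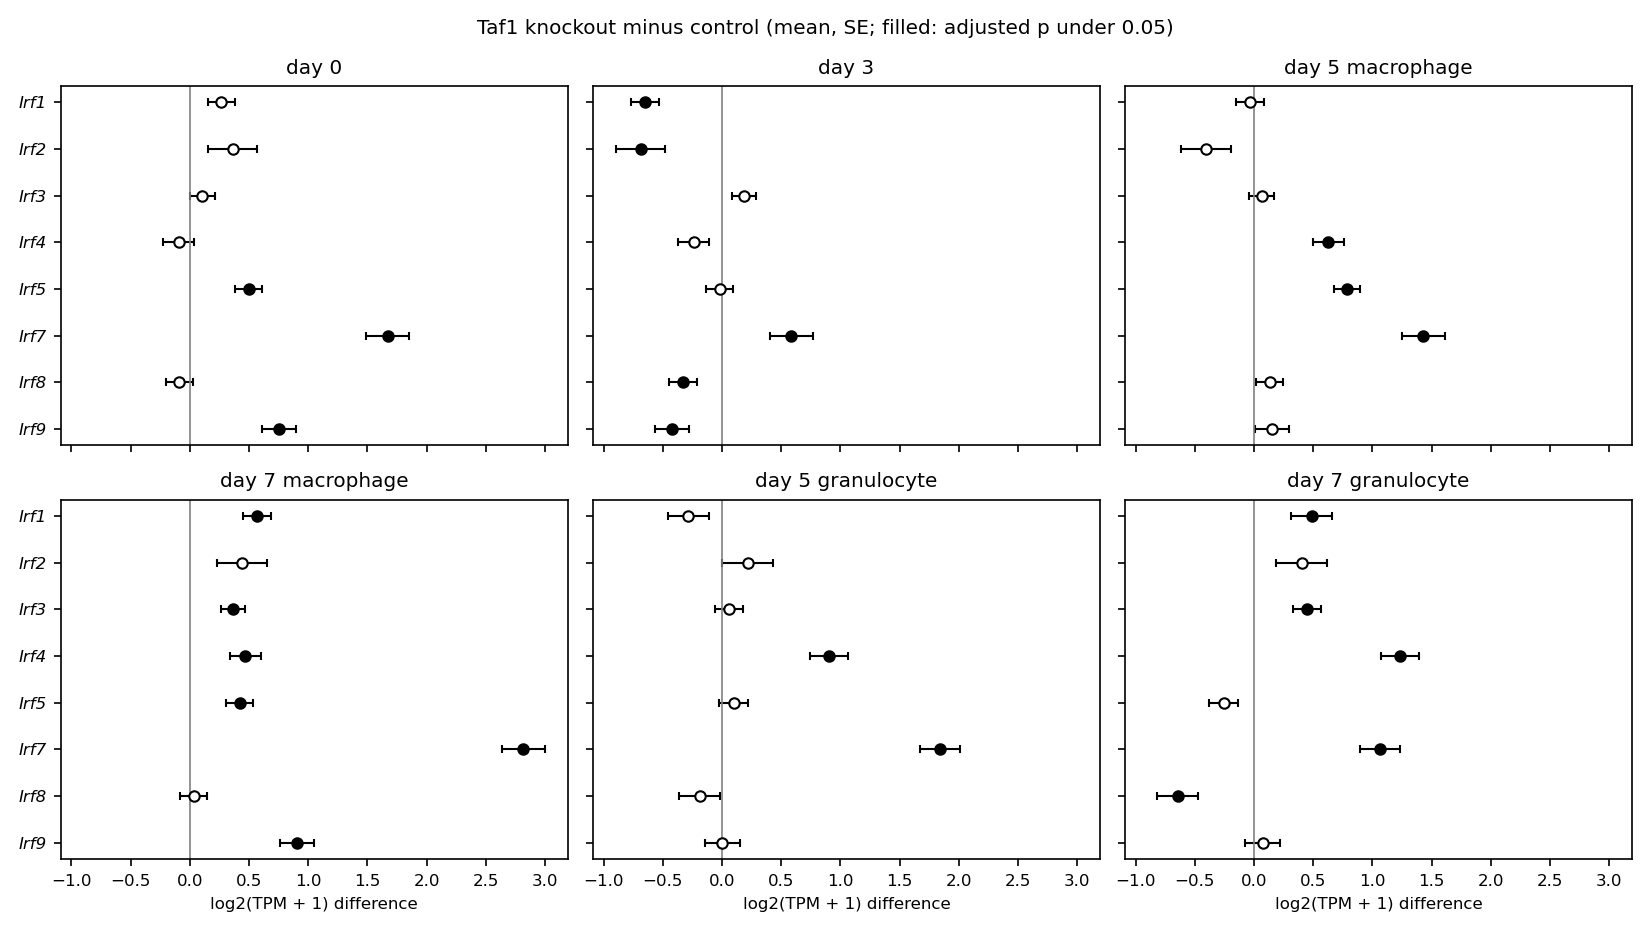
Log2 difference, knockout minus control, of each IRF gene at the 6 stages with its SE, from the limma fits on log2(TPM + 1); filled points passed an adjusted p of 0.05. Irf7 is filled and above 0 in every panel, with its highest value, 2.82, at day 7 of the macrophage course, and 4 points are filled below 0 at day 3.

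Irf7, the amplifier of type I interferon production and itself a target of ISGF3, was the member that was higher in knockout cells at every stage. At day 3 it had 24.2, 21.6 and 24.02 TPM in knockout libraries, against 13.7, 14.7 and 17.3 TPM in controls (log2 difference 0.59 ± 0.18, limma adjusted p = 0.0103). In the macrophage course at day 7 it had 33.4, 41.4 and 20.3 TPM in knockout libraries, against 3.03, 3.42 and 3.99 TPM in controls. The groups were far apart there, although the knockout libraries were spread (SD 10.7 TPM), and the log2 difference was 2.82 ± 0.18 (limma adjusted p = 9.44e-10). At day 5 of the granulocyte course the knockout libraries had 25.7, 28.6 and 28.4 TPM and the controls 7.20, 7.36 and 6.34 TPM (1.84 ± 0.17, limma adjusted p = 8.66e-08), and at day 7 it had 13.4, 18.6 and 21.9 TPM in knockout libraries against 6.49, 7.40 and 10.2 TPM in controls (1.06 ± 0.17, limma adjusted p = 4.45e-05). No knockout library overlapped a control library at any of these stages. At day 0 (16.1 ± 3.37 TPM in knockout and 4.30 ± 0.488 TPM in control cells) and day 5 of the macrophage course (9.66 ± 0.747 TPM in knockout and 2.96 ± 0.285 TPM in control cells; SD, n = 3) the same held.

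The level of Irf7 in controls rose between day 0 and day 3, with 15.2 TPM at day 3 against 4.30 TPM at day 0 (log2 1.61 ± 0.18, limma adjusted p = 1.04e-07). In knockout cells that step was 0.52 ± 0.18 (limma adjusted p = 0.0183), and the difference between the steps, -1.09 ± 0.26, passed (limma adjusted p = 0.00337). In the order of its 12 group means, the 5 highest were knockout groups, led by day 7 of the macrophage course, whose libraries overlapped those of the next group. Irf7 (mm10, chr7:141262706-141266481, minus strand) shares exon sequence with Phrf1 on the opposite strand, and no source used here says whether the counting used strand. Phrf1 was higher in knockout cells by 0.58 ± 0.09 at day 3 (limma adjusted p = 1.83e-05), a value near that of Irf7, and by 0.40 ± 0.09 at day 7 of the granulocyte course (limma adjusted p = 0.00139); at the other 4 stages its log2 difference was 0.004 to 0.20 and did not pass.

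Irf3, the constitutively made partner of Irf7, was among the steadiest members. In the macrophage course at day 7 it had 32.4, 34.0 and 31.4 TPM in knockout libraries, against 22.0, 24.9 and 28.7 TPM in controls, a log2 difference of 0.37 ± 0.10 (limma adjusted p = 0.00917). At day 7 of the granulocyte course it had 28.6, 34.4 and 36.1 TPM in knockout libraries, against 21.7, 21.4 and 29.1 TPM in controls, groups that overlap (0.45 ± 0.12, limma adjusted p = 0.00437). The macrophage call was lost after the scaling (adjusted p = 0.0595) and without control replicate 1. At the other 4 stages its log2 difference was 0.06 to 0.19 and did not pass. Its level was highest at day 0, 41.0 TPM in knockout and 37.9 TPM in control cells, and it was 23.9 to 28.0 TPM at day 3 and day 5 by group means. Its exons overlap Bcl2l12 on the opposite strand, which was higher in knockout cells at day 3 (0.49 ± 0.13, limma adjusted p = 0.0029) and did not pass at either day 7.

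Irf9, the DNA-binding subunit of ISGF3, changed sign between stages. At day 0 it had 37.7, 35.9 and 37.0 TPM in knockout libraries, against 23.3, 23.4 and 18.0 TPM in controls (log2 0.75 ± 0.14, limma adjusted p = 0.000635). At day 3 the knockout libraries were the lower ones, with 9.71, 10.04 and 8.84 TPM in knockout libraries against 13.6, 12.5 and 13.3 TPM in controls (-0.42 ± 0.14, limma adjusted p = 0.0166), a call lost without knockout replicate 3 or control replicate 1 (adjusted p = 0.065 and 0.0512). At day 7 of the macrophage course it had 24.5, 29.3 and 22.8 TPM in knockout libraries, against 11.7, 12.8 and 14.9 TPM in controls (0.90 ± 0.14, limma adjusted p = 6.2e-05). Groups did not overlap at these 3 stages. At day 5 of either course and at day 7 of the granulocyte course they overlapped and the difference, 0.00 to 0.15 log2, did not pass. Irf9 shares exon sequence with Rnf31, a ubiquitin ligase gene, on the same strand, which strand cannot resolve; Rnf31 passed in the direction of Irf9 at day 3 (-0.28 ± 0.10, limma adjusted p = 0.0285) and day 7 of the macrophage course (0.43 ± 0.10, limma adjusted p = 0.00268), and was also higher at day 7 of the granulocyte course (0.49 ± 0.12, limma adjusted p = 0.00318), where Irf9 did not pass.

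Irf1, the activator of guanylate-binding protein and antigen-presentation genes, and Irf2, its antagonist, were both lower in knockout cells at day 3. Irf1 had 24.5, 26.9 and 24.6 TPM in knockout libraries, against 40.5, 38.1 and 42.1 TPM in controls (log2 -0.65 ± 0.12, limma adjusted p = 0.000113). Irf2 had 3.89, 3.14 and 2.95 TPM in knockout libraries, against 6.56, 5.37 and 5.91 TPM in controls (-0.69 ± 0.21, limma adjusted p = 0.00901). Neither pair of groups overlapped. In both genes this was the only stage with a call below 0. At day 7 of the macrophage course Irf1 was higher, with 22.1, 29.7 and 28.2 TPM in knockout libraries against 16.3, 18.3 and 18.1 TPM in controls (0.57 ± 0.12, limma adjusted p = 0.000808). At day 7 of the granulocyte course it had 35.5, 62.6 and 58.9 TPM in knockout libraries, against 31.3, 33.9 and 43.8 TPM in controls, with knockout replicate 1 inside the control range (0.49 ± 0.17, limma adjusted p = 0.0283). That call was lost without knockout replicate 2 or 3, without control replicate 1 or 2, and with these groups fitted alone (adjusted p = 0.125). Irf2 at day 7 had 5.08 TPM in knockout and 3.52 TPM in control cells in the macrophage course, and 5.62 TPM in knockout and 4.01 TPM in control cells in the granulocyte course. The Irf2 libraries did not overlap at either, but the differences, 0.44 ± 0.21 and 0.40 ± 0.22, did not pass (limma adjusted p = 0.0978 and 0.14). The exons of Irf1 overlap Gm17334 on the opposite strand, for which no level is given here.

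Irf5, which acts in Toll-like receptor signalling of macrophages, was higher in knockout cells at day 0 and in the macrophage course. At day 0 it had 16.5, 21.5 and 21.5 TPM in knockout libraries, against 14.9, 14.1 and 12.2 TPM in controls (log2 0.50 ± 0.11, limma adjusted p = 0.00326). At day 5 of the macrophage course it had 42.3, 49.1 and 45.0 TPM in knockout libraries, against 23.0, 27.1 and 27.9 TPM in controls (0.79 ± 0.11, limma adjusted p = 2.17e-05), and at day 7 it had 142.9, 132.4 and 117.3 TPM in knockout libraries against 97.9, 107.0 and 87.4 TPM in controls (0.42 ± 0.11, limma adjusted p = 0.00593). None of these groups overlapped. The summed macrophage markers were lower in knockout libraries at day 5 of this course, 451 to 527 TPM against 941 to 1213 TPM in controls. At day 0 they were higher, 62.7 to 72.5 TPM in knockout against 56.8 to 62.2 TPM in control libraries. At day 7 of the macrophage course they overlapped, 2301 to 2469 TPM in knockout and 2132 to 3112 TPM in control libraries. Their part in the Irf5 differences was not tested. In the granulocyte course Irf5 did not pass; at its day 7 it had 60.6 TPM in knockout and 73.4 ± 14.4 TPM in control cells (-0.26 ± 0.12, limma adjusted p = 0.0972). After the median-of-ratios scaling it passed as lower there (-0.47, limma adjusted p = 0.00424), and its call at day 7 of the macrophage course was lost (0.26, limma adjusted p = 0.118). The exons of Irf5 overlap Tnpo3, an importin gene on the opposite strand, which was higher at day 3 (0.43 ± 0.09, limma adjusted p = 0.000743) and day 7 of the macrophage course (0.30 ± 0.09, limma adjusted p = 0.0165). The difference between the 2 courses in the knockout effect on Irf5 was 0.69 ± 0.14 at day 5 and 0.68 ± 0.19 at day 7 and missed the threshold at both (limma adjusted p = 0.0948 and 0.0805).

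Irf4 was near 0 at day 0, at 0.12 TPM or less in knockout and 0.29 TPM or less in control libraries, and reached its highest levels at day 3, with 7.18 TPM in knockout and 8.72 TPM in control cells. It then declined in both genotypes, and less so in knockout cells. In the macrophage course it had 4.23, 2.30 and 3.1 TPM in knockout libraries at day 5, against 1.5, 1.66 and 1.88 TPM in controls (log2 0.63 ± 0.13, limma adjusted p = 0.000916). At day 5 of the granulocyte course it had 6.17, 5.88 and 6.45 TPM in knockout libraries, against 4.65, 2.13 and 2.17 TPM in controls (0.90 ± 0.16, limma adjusted p = 0.000215), and at day 7 it had 2.29, 2.50 and 2.55 TPM in knockout libraries against 0.33, 0.54 and 0.54 TPM in controls (1.23 ± 0.16, limma adjusted p = 6.13e-06). By day 7 of the macrophage course it was 1.49 TPM in knockout and 0.80 TPM in control cells (0.47 ± 0.13, limma adjusted p = 0.00861). Knockout libraries lay above control libraries at all 4 of these stages, where these low levels make the log2 values depend on the added 1 TPM.

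Irf4 is also a gene of dendritic cells. The summed level of 10 conventional dendritic cell markers was 9.03 to 42.9 TPM in knockout against 77.8 to 243 TPM in control libraries at day 0, and 653 to 801 TPM in knockout against 758 to 1213 TPM in control libraries at day 3, stages at which Irf4 did not pass. At the later stages it was 755 to 972 TPM in knockout against 444 to 493 TPM in control libraries at day 5 of the macrophage course, and 256 to 436 TPM in knockout against 117 to 189 TPM in control libraries at its day 7. In the granulocyte course it was 745 to 920 TPM in knockout against 508 to 585 TPM in control libraries at day 5, and 406 to 904 TPM in knockout against 338 to 543 TPM in control libraries at day 7, where the groups overlap. In knockout cells of the macrophage course Irf4 was lower at day 5 than at day 3 (3.21 TPM at day 5 against 7.18 TPM at day 3), while the marker sum of these days overlapped. Within that list Ccl22 and Ccr7, made by mature dendritic cells, were at 10.3 to 103.5 TPM and 9.41 to 58.8 TPM in knockout libraries at day 7 of the granulocyte course, against at most 0.97 and 0.90 TPM in controls. H2-Aa, a class II gene of antigen-presenting cells, was at 66.3 to 130.1 TPM in knockout and 93.3 to 158.1 TPM in control libraries there. The part of these cells in the Irf4 difference was not tested.

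Irf8, the monocyte and dendritic cell factor, did not pass at day 0, where it had 135.8, 133.3 and 134.0 TPM in knockout libraries and 136.6, 161.0 and 132.7 TPM in controls (log2 -0.09 ± 0.11, limma adjusted p = 0.63). At day 3 it had 9.23, 11.9 and 10.98 TPM in knockout libraries, against 14.8, 12.9 and 13.3 TPM in controls (-0.33 ± 0.11, limma adjusted p = 0.0209). The groups lay close without overlapping, and the call was lost without knockout or control replicate 1, and in the fits of the granulocyte table (adjusted p = 0.121) and of all 36 libraries (adjusted p = 0.0931). At day 7 of the granulocyte course it had 39.9, 20.7 and 20.3 TPM in knockout libraries, against 37.6, 39.7 and 44.8 TPM in controls (-0.64 ± 0.17, limma adjusted p = 0.00537). Knockout replicate 1 lay inside the control range there; without it the difference was -0.95, and with these groups fitted alone it did not pass (adjusted p = 0.0732). At that day in the macrophage course Irf8 was 63.8 TPM in knockout and 62.5 TPM in control cells (0.03 ± 0.11, limma adjusted p = 0.838), so that its day 7 level did not separate the genotypes at this spread. The monocyte markers summed to 331 to 412 TPM in knockout and 1655 to 1976 TPM in control libraries at day 7 of the granulocyte course, and to 343 to 526 TPM in knockout and 708 to 1443 TPM in control libraries at day 7 of the macrophage course.

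The step to day 3 moved most members in both genotypes. In knockout cells 3 members were higher at day 3 than at day 0 and 4 lower, against 22.8% higher and 35.9% lower among all genes. In control cells 5 members were higher and 3 lower, against 33.3% higher and 39.6% lower. Irf8 fell by 3.54 ± 0.11 in knockout and by 3.30 ± 0.11 in control cells on the log2 scale, and Irf4 rose by 2.91 ± 0.13 and 3.06 ± 0.13. The difference between genotypes passed for neither step (limma adjusted p = 0.266 and 0.588). Irf1 moved in opposite directions, with -0.51 ± 0.12 in knockout and 0.41 ± 0.12 in control cells (limma adjusted p = 0.00101 and 0.00402). Irf9 fell by 1.85 ± 0.14 in knockout and by 0.67 ± 0.14 in control cells. The difference between genotypes in this step passed for 5 members, Irf1, Irf2, Irf5, Irf7 and Irf9, all more negative in knockout cells, as were 17.3% of all genes. The Irf5 call was lost without knockout replicate 2 or 3 or control replicate 3 at day 0 (adjusted p up to 0.0533). The rise of Irf7 in knockout cells lost its call without knockout replicate 2 at day 0 or replicate 1 at day 3 (adjusted p up to 0.123).

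Along the macrophage course 2 members were higher at day 5 than at day 3 in knockout cells and 3 lower, where 8.68% of all genes were higher and 47.0% lower. In control cells 1 member was higher and 4 lower, where 25.6% of all genes were higher and 24.6% lower. Irf8, which promotes macrophage fate, rose in both, by 0.89 ± 0.11 in knockout and 0.43 ± 0.11 in control cells. Irf5 rose by 0.63 ± 0.11 in knockout cells (limma adjusted p = 0.000149) and had a value of -0.18 ± 0.11 in control cells (limma adjusted p = 0.207); the difference between these steps was not tested. At day 7, 7 members were higher than at day 5 in knockout cells and Irf4 was lower. Of all genes 58.1% were higher and 8.56% lower in this step, 6940 and 1023 genes, or 3201 and 2881 after the scaling. In control cells Irf5, Irf8 and Irf9 were higher and Irf4 was lower, where 22.9% of all genes were higher and 16.2% lower. The member count in knockout cells was 5 after the scaling, without Irf1, Irf2 and Irf3. The scaling moved the median of all genes in this step to 0.00 instead of 0.37. Irf5 rose by 1.504 ± 0.11 in knockout and 1.87 ± 0.11 in control cells, and Irf8 by 1.58 ± 0.11 and 1.68 ± 0.11. Irf7 rose by 1.56 ± 0.18 in knockout cells (limma adjusted p = 3.3e-07), and in control cells its value was 0.17 ± 0.18 (limma adjusted p = 0.481).

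Along the granulocyte course, day 5 against day 3 gave no call among the 8 members in knockout cells with limma, where 3.57% of all genes were higher and 11.2% lower. No member had an unadjusted p under 0.05 (0 of 8), and 1 passed with these groups fitted alone. In control cells 3 members were lower, Irf1, Irf4 and Irf7, where 23.4% of all genes were higher and 20.8% lower. Without control replicate 1 at day 5 the count was 5, and Irf1 lost its call without any of the other 5 libraries. At day 7, 5 members were higher than at day 5 in knockout cells and 2 lower, where 27.9% of all genes were higher and 13.8% lower. In control cells 3 were higher and 1 lower, where 10% of all genes were higher and 28.0% lower. The members higher in both genotypes were Irf5, Irf8 and Irf9, the ones that also rose in the macrophage course, and Irf4 again fell, by 1.06 ± 0.16 in knockout cells. In control cells Irf4 fell by 1.384 ± 0.16. Irf7 fell by 0.62 ± 0.17 in knockout cells (limma adjusted p = 0.00534). The knockout effect at day 7 minus that at day 3 passed for 6 members in the macrophage course and for Irf1, Irf2 and Irf4 in the granulocyte course, all positive. Of all genes 21.8% and 22.3% passed as positive in the 2 courses, which share the day 3 libraries. The granulocyte count was 6 without knockout replicate 1 or control replicate 3 at day 7, and Irf5 lost its macrophage call after the scaling and without any 1 of 8 libraries.

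The 2 courses were compared within each genotype. At day 5 in knockout cells Irf5 and Irf8 were higher and Irf4 and Irf7 lower in macrophage than in granulocyte cultures, where 3.66% of all genes were higher and 12.9% lower. The Irf4 call (-0.79 ± 0.22, limma adjusted p = 0.0353) was lost without any 1 of 5 of the 6 libraries, all but knockout replicate 1 of the macrophage course (adjusted p up to 0.139). In control cells Irf8 was higher and Irf7 lower, where 1.17% of all genes were higher and 2.27% lower. Deviations from group means of these control libraries correlated at 0.464 to 0.771 for like replicate numbers and at up to 0.614 for unlike ones. The numbers may thus not pair them. With the replicate number as a block Irf1 also passed as lower (-0.54, limma adjusted p = 0.0351). Without the block its adjusted p was 0.0899, and it passed without control replicate 1 in both courses (-0.48). Irf8 had 20.7 TPM in the macrophage and 8.75 TPM in the granulocyte course of knockout cells (log2 1.15 ± 0.12, limma adjusted p = 0.000208), and 18.7 TPM in the macrophage and 10.2 TPM in the granulocyte course of control cells (0.83 ± 0.12, limma adjusted p = 0.00318). At day 7 it had 63.8 TPM in the macrophage and 27.0 TPM in the granulocyte course of knockout cells (1.28 ± 0.22, limma adjusted p = 0.000738). In control cells it had 62.5 TPM in the macrophage and 40.7 TPM in the granulocyte course (0.60 ± 0.22, limma adjusted p = 0.0421), a call lost after the scaling (0.42, adjusted p = 0.237) and without replicate 1 or 2 of either course. Irf5 was likewise higher in the macrophage course at day 7, by 1.10 ± 0.13 in knockout and 0.42 ± 0.13 in control cells, the control libraries overlapping between courses and the control call being lost after the scaling and without replicate 1 or 2 of either course. Irf1 was lower there, with log2 differences of -0.91 ± 0.20 in knockout and -0.996 ± 0.20 in control cells.

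**Figure D4:**
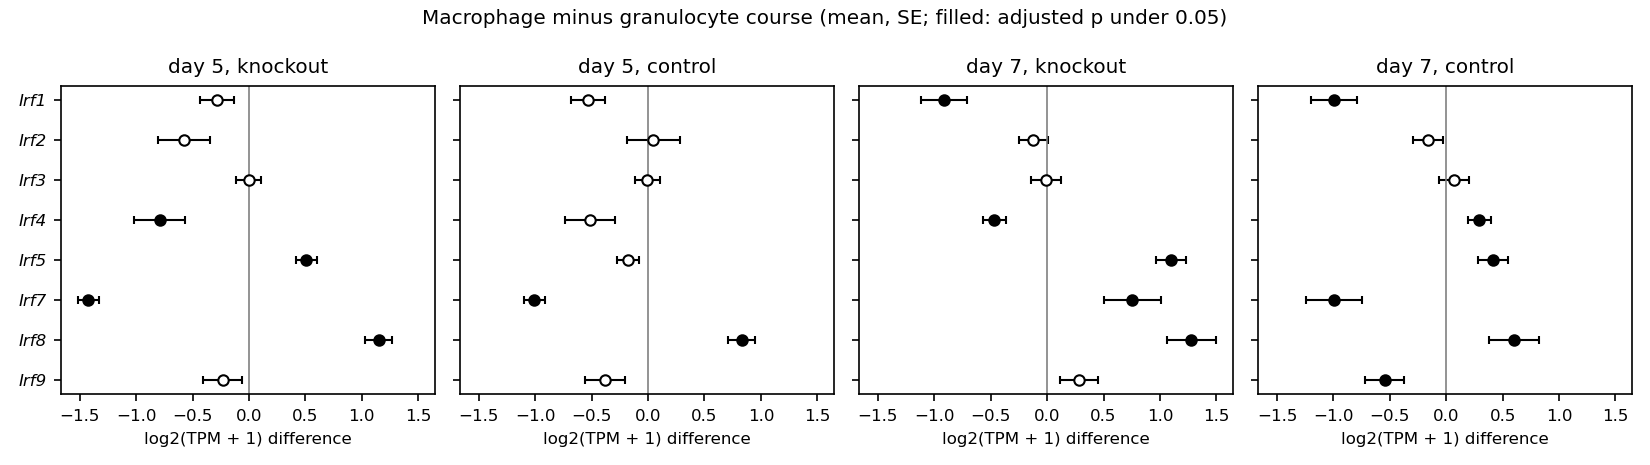
Log2 difference of each IRF gene, macrophage minus granulocyte course, with its SE, at days 5 and 7 in knockout and control cells; filled points passed a limma adjusted p of 0.05. Irf8 is above 0 in all 4 panels, and Irf7 is below 0 in 3 panels and above 0 in knockout cells at day 7 (0.76).

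At day 7, 3 members were higher and 2 lower in the macrophage course of knockout cells, where 37.5% of all genes were higher and 15.4% lower. In control cells 3 were higher and 3 lower, where 36.3% of all genes were higher and 10.3% lower. The control count was 3 in all after the scaling and 2 to 5 without single libraries, and Irf4, Irf5, Irf8 and Irf9 each lost the call without at least 4 of the 6 control libraries in turn. Irf7 had opposite signs: in knockout cells it was 31.7 TPM in the macrophage and 17.9 TPM in the granulocyte course (log2 0.76 ± 0.25, limma adjusted p = 0.0247, with overlapping libraries), and in control cells 3.48 TPM in the macrophage and 8.03 TPM in the granulocyte course (-0.996 ± 0.25, limma adjusted p = 0.00802). The knockout value did not pass without replicate 1 or 2 of the macrophage course or replicate 1 of the granulocyte course (0.54 to 0.69), with these groups fitted alone, or without replicate 1 in both courses (0.51). Irf4 also had opposite signs, lower in the macrophage course of knockout cells (1.49 TPM in the macrophage against 2.45 TPM in the granulocyte course) and higher in that of controls (0.80 TPM in the macrophage against 0.47 TPM in the granulocyte course). The difference of the knockout effects between courses passed for these 2 members, 1.75 ± 0.35 for Irf7 (limma adjusted p = 0.0247) and -0.76 ± 0.15 for Irf4 (limma adjusted p = 0.0216), where 3.26% of all genes passed. With the replicate number as a block Irf9 also passed (0.83, limma adjusted p = 0.0321). Pairing by number is uncertain there. Unlike numbers correlated at up to 0.430 in control and 0.348 in knockout cells, above the lowest values of like numbers (0.231 and 0.271). The Irf7 and Irf4 calls were both lost without knockout replicate 2 or control replicate 1 or 2 of the macrophage course and without knockout or control replicate 2 of the granulocyte course. The Irf4 call was also lost without knockout replicate 3 or control replicate 1 of the granulocyte course, and adjusted p reached 0.0697 over these. At day 5 no member passed this test with limma (0.189% of all genes did), 2 had an unadjusted p under 0.05, and 1 passed with a pseudocount of 5 TPM.

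Around the family, the interferon genes that were looked up, a chosen list of 10, were at or near 0. Of these 10, Ifna1, Ifna2, Ifna4, Ifna5, Ifne, Ifnl2 and Ifnl3 were listed at 0 in all 36 libraries, and other interferon genes were not looked up. Ifnb1 reached at most 0.23 TPM, Ifng 0.12 TPM and Ifnk 0.08 TPM, and none entered the test. For the lists around the family, each gene given with a log2 difference and its SE passed the limma test at that stage. The counts of each list are to be read against the shares of all genes that passed. These shares are without the scaling. Counts after the scaling belong with the split of passing genes under the scaling given above, which leaves out day 3. Of the 10 genes for interferon receptors and the JAK and STAT proteins below them, 4 were higher in knockout cells at day 0 (2 after the scaling), with the interferon gamma receptor chain Ifngr2 at 25.0 TPM in knockout and 17.5 TPM in control cells (log2 0.50 ± 0.11). Among all genes 13.1% were higher there. At day 3, 1 was higher and 2 lower (1 and 4 after the scaling), a smaller share than the 53.2% of all genes that passed, among them the other chain of that receptor, Ifngr1 (176 TPM in knockout and 306 TPM in control cells, -0.79 ± 0.14). At day 7, 8 were higher in the macrophage course (4 after the scaling), with Stat2 at 11.6 TPM in knockout and 4.89 TPM in control cells (1.14 ± 0.22), and 6 in the granulocyte course (after the scaling 3 higher and 1 lower), with Jak2 at 81.0 TPM in knockout and 30.7 TPM in control cells (1.31 ± 0.19). Among all genes 27.4% were higher at day 7 of the macrophage course and 32.1% at day 7 of the granulocyte course. At day 5, 1 was lower in the macrophage course (4 higher instead after the scaling) and none passed in the granulocyte course, where 1 passed as higher after the scaling.

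Nucleic acid sensors, their adaptors and the kinases that activate IRF3 and IRF7 gave 10 higher and 2 lower of 20 at day 0, where 13.1% of all genes were higher and 10.2% lower, with the RNA sensor Ifih1 (MDA5) at 13.6 TPM in knockout and 7.38 TPM in control cells (log2 0.81 ± 0.10) and the kinase Tbk1 at 26.6 TPM in knockout and 19.3 TPM in control cells (0.45 ± 0.10). At day 3, 4 were higher and 7 lower, so 11 of 20 passed, near the 53.2% of all genes. Tmem173 (STING), an adaptor for cytosolic DNA, was at 25.6 TPM in knockout and 14.7 TPM in control cells (0.75 ± 0.09), and Tlr7, an endosomal sensor of single-stranded RNA, at 1.46 TPM in knockout and 4.21 TPM in control cells (-1.08 ± 0.18). Tlr7 was lower again at day 5 of both courses and at day 7 of the granulocyte course (2.98 TPM in knockout and 12.4 TPM in control cells, -1.71 ± 0.16). The kinase Ikbke was lower in the granulocyte course at day 7, 12.2 TPM in knockout and 33.7 TPM in control cells (-1.41 ± 0.13). By count, day 5 gave 1 higher and 7 lower in the macrophage course (4 and 4 after the scaling), where 5.11% of all genes were higher and 37.9% lower. It gave 1 and 6 of 18 in the granulocyte course (3 and 5 after the scaling), where 9.20% of all genes were higher and 22.8% lower. Day 7 gave 11 higher and 0 lower in the macrophage course (7 and 1 after the scaling), Ifih1 again among them, where 27.4% of all genes were higher and 12.5% lower. It gave 3 and 3 of 18 in the granulocyte course (1 and 5 after the scaling), where 32.1% of all genes were higher and 12% lower.

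The list of antiviral genes of the ISGF3 type held 24. At day 0, 15 of 23 tested were higher in knockout cells and none lower, where 13.1% of all genes were higher, with a median log2 difference of 0.74 against 0.06 over all genes. Oas1a, which senses double-stranded RNA, was at 74.6 TPM in knockout and 19.8 TPM in control cells (1.87 ± 0.14), and the ubiquitin-like modifier Isg15 at 12.5 TPM in knockout and 2.46 TPM in control cells (1.97 ± 0.22). At day 3, 6 were higher and 3 lower, a smaller share than the 53.2% of all genes that passed. In the macrophage course 8 were higher and 3 lower at day 5 (10 and 1 after the scaling), and at day 7 21 of 23 were higher and none lower (20 after the scaling), with a median of 1.20 against 0.12 over all genes. Among all genes 5.11% were higher and 37.9% lower at day 5, and 27.4% were higher and 12.5% lower at day 7. Rsad2 (viperin) was at 26.8 TPM in knockout and 1.39 TPM in control cells there (3.47 ± 0.20), and Ifit3, an antiviral effector, at 20.6 TPM in knockout and 1.13 TPM in control cells (3.29 ± 0.18). Ifit1, which blocks translation of viral RNA, was at 13.4 TPM in knockout and 0.69 TPM in control cells (3.01 ± 0.21). In the granulocyte course 1 was higher and 5 lower of 22 at day 5, and 3 higher and 7 lower at day 7 (3 and 9 after the scaling), against 9.20% higher and 22.8% lower among all genes at day 5 and 32.1% and 12% at day 7. Irf7, which is not in this list, was higher at both days. The membrane antiviral protein gene Ifitm3 was at 198 TPM in knockout and 554 TPM in control cells at that day 7 (-1.48 ± 0.16), and Oas1a was higher at day 5, with 26.5 TPM in knockout and 17.4 TPM in control cells (0.58 ± 0.14). The difference between courses in these genes was not tested.

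**Figure D5:**
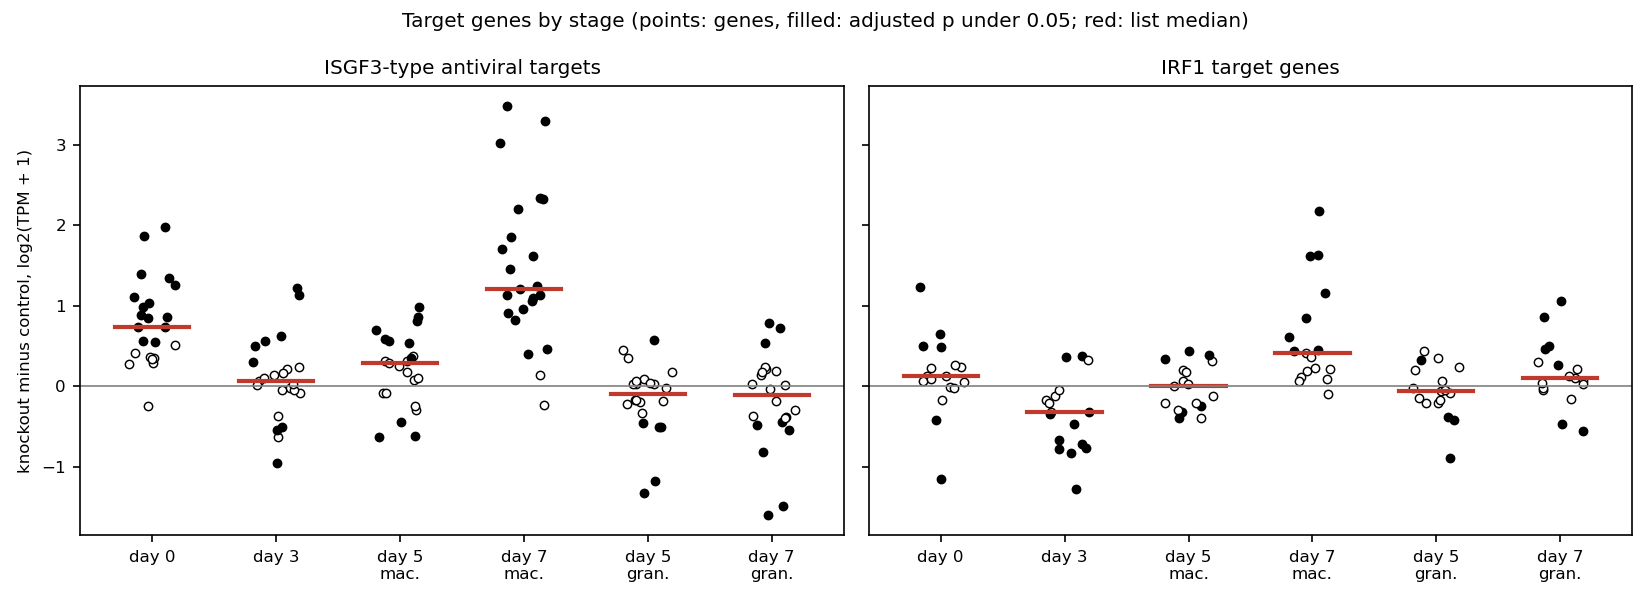
Log2 difference, knockout minus control, of each tested gene in the ISGF3-type list and the IRF1 list at the 6 stages; points are genes, filled where they passed an adjusted p of 0.05, and the red bar is their median. The ISGF3-type median is 0.74 at day 0 and 1.20 at day 7 of the macrophage course. At days 5 and 7 of the granulocyte course it is -0.10 and -0.11, where the median over all genes is -0.09 and 0.17.

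Genes driven by IRF1 gave 4 higher and 2 lower of 17 at day 0 and 2 higher and 9 lower at day 3, the stage at which Irf1 was also lower (median log2 -0.32 against -0.01 over all genes). Among all genes 23.3% passed at day 0, and 26.5% were higher and 26.7% lower at day 3. At day 3 the peptide transporter Tap1 was at 30.9 TPM in knockout and 53.4 TPM in control cells (-0.77 ± 0.16), the class I light chain B2m at 908 TPM in knockout and 1489 TPM in control cells (-0.71 ± 0.09), and the checkpoint ligand Cd274 (PD-L1) at 9.39 TPM in knockout and 24.2 TPM in control cells (-1.27 ± 0.26). Day 7 of the macrophage course had 8 higher and none lower, among them Cd274 at 27.9 TPM in knockout and 8.05 TPM in control cells (1.63 ± 0.26) and the chemokine Cxcl10 at 8.82 TPM in knockout and 1.03 TPM in control cells (2.17 ± 0.25), where 27.4% of all genes were higher. The day 5 counts were 3 and 3 in the macrophage course (5 and 0 after the scaling) and 1 and 3 in the granulocyte course (3 and 3 after the scaling), and day 7 of the granulocyte course gave 5 and 2 (2 and 3 after the scaling). The shares that passed among all genes were 43.0% at day 5 of the macrophage course and 32.0% and 44.1% at days 5 and 7 of the granulocyte course. Negative regulators and corepressors gave 5 higher of 14 at day 0, 2 higher and 4 lower at day 3, and 9 higher and none lower at day 7 of either course (8 and 2 in the macrophage and 8 and 1 in the granulocyte course after the scaling). The 6 of 14 at day 3 are a smaller share than the 53.2% of all genes that passed, and among all genes 13.1% were higher at day 0, 27.4% at day 7 of the macrophage course and 32.1% at day 7 of the granulocyte course. The cytokine signal inhibitor Socs1 was at 20.8 TPM in knockout and 2.52 TPM in control cells at day 7 of the granulocyte course (2.58 ± 0.25) and Socs3 at 129.8 TPM in knockout and 41.5 TPM in control cells (1.60 ± 0.16). The ISG15 protease Usp18 was at 10.3 TPM in knockout and 2.26 TPM in control cells at day 0 (1.80 ± 0.28), and at 35.4 TPM in knockout and 4.78 TPM in control cells at day 7 of the macrophage course (2.69 ± 0.28). At day 5 the counts were 3 and 3 in the macrophage course (6 and 0 after the scaling) and 3 and 1 in the granulocyte course, where 43.0% and 32.0% of all genes passed.

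Among 19 tested partner and lineage transcription factors, 4 were higher and 1 lower at day 0 (2 and 1 after the scaling), with Spi1, which recruits IRF4 and IRF8 to composite elements, at 158 TPM in knockout and 110 TPM in control cells (log2 0.52 ± 0.09). The 5 of 19 at day 0 are near the 23.3% of all genes that passed. Batf3, the partner of IRF8 in dendritic cells, was at 0.163 TPM in knockout and 2.01 TPM in control cells at day 0 (-1.29 ± 0.22). At day 7 of the granulocyte course it was at 9.77 TPM in knockout and 3.24 TPM in control cells (1.33 ± 0.21), and Batf was higher there too, with 67.8 TPM in knockout and 39.9 TPM in control cells (0.75 ± 0.12). At day 3, 1 was higher and 7 lower, against 26.5% and 26.7% of all genes, among them Zeb2, a repressor needed in dendritic cell development, with 7.77 TPM in knockout and 17.7 TPM in control cells (-1.09 ± 0.09). The summed macrophage markers were 192 to 307 TPM in knockout and 783 to 1059 TPM in control libraries at that stage, and their part in these differences was not tested. In the macrophage course 2 were higher and 9 lower at day 5 (3 and 4 after the scaling) and 4 and 2 at day 7 (3 and 3). Among all genes 5.11% were higher and 37.9% lower at that day 5, and 27.4% and 12.5% at that day 7. The granulocyte course gave 2 and 6 at day 5, where 9.20% of all genes were higher and 22.8% lower, and 8 and 4 at day 7 (6 and 5), where 32.1% were higher and 12% lower.

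The genes whose 12 group means followed each member most closely were ranked by Pearson's r on the log2 scale among 10006 genes, as a description over means that share libraries and genotypes. They were Ccl24, Azin2 and Il4i1 for Irf4 (r = 0.977, 0.965 and 0.951), Ndor1, Emc10 and Mocs3 for Irf3 (0.969, 0.967 and 0.964) and Nckap1l, Sestd1 and St6gal1 for Irf5 (0.965, 0.963 and 0.961). For Irf9 they were Mov10, Irgm1 and Zfp874b (0.940, 0.927 and 0.920), for Irf8 Pcp4l1, Wdpcp and Phka2 (0.930, 0.925 and 0.919), and for Irf7 Isoc2b, Ankra2 and Entpd4 (0.905, 0.886 and 0.886). Irf1 and Irf2 had Arhgap26, Ly6a and Ulk1 (0.912, 0.893 and 0.871) and Fam168a, Rnf114 and Aftph (0.915, 0.881 and 0.879). Within the family the closest pair was Irf3 and Irf9 (r = 0.808), and Irf4 ran opposite to Irf8 (r = -0.885).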

How the data were processed

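RNA-seq of total RNA was made with the KAPA stranded kit from bone marrow HSPCs and their cultures, with every cytokine at 50 ng/ml, per the labels' protocols. The authors deposited TPM per gene in 2 tables of 24 libraries and 24411 genes; the 12 shared day 0 and day 3 columns held 0 unequal values. RSEM and DESeq2 1.38.3 with the mm10 build are named per the submitters' processing notes. No RSEM version, annotation or strand setting is given in the sources used here. TPM keeps no depth, so no counting error is given, and a gene group that takes more of the total lowers all others: S100a8 with S100a9 held 0.109% to 23.4%.

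Libraries were grouped by the labels into 12 groups of 3. Genes reaching 1 TPM in 3 or more libraries entered limma 3.58.1 (R 4.3.3) as log2(TPM + 1), with 1 coefficient a group and a variance trend, separately for the macrophage table (11953 genes, also used for day 0 and day 3), the granulocyte table (11905), and the day 5 (11119) and day 7 libraries (11269) of both courses. There were 25 comparisons, with Benjamini-Hochberg adjustment over the genes of a fit and a threshold of 0.05. The members and the gene lists were chosen with earlier results of these data known, so a list's direction is not independent evidence. The text names all 8 members, Taf1, up to 4 genes a list with the smallest passing p, and the 3 genes closest to each member. A few genes that this rule names are not reported here. All 202 list symbols matched. The script was tested on simulated data.

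Other settings tried were median-of-ratios scaling (factors 0.83 to 1.17), pseudocounts of 0.1 and 5 TPM, a 5 TPM filter or none, the groups of a contrast fitted alone, 1 fit of all 36 libraries, the granulocyte table for day 0 and day 3, the replicate number as a block, and each library left out in turn. Leaving out S100a8 and S100a9, control replicate 1 at day 5, knockout replicate 1 at day 7 and control replicate 3 at day 7 was chosen after seeing the data. Whether replicate numbers pair libraries was checked by the correlation of deviations from group means. For like numbers it was over 0.1 throughout between knockout and control at day 5 of the macrophage course (0.182 to 0.3). The same held between the courses within a genotype and day (at least 0.231), and between days 5 and 3 and days 7 and 5 in knockout cells, and not elsewhere. Unlike numbers reached 0.614 between the courses in controls at day 5 and 0.430 at day 7, above the lowest like numbers (0.464 and 0.231). Pairing by number is therefore uncertain, and shared cultures are not stated by the labels. Sequences came from RefSeq.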

Additional observations from a re-analysis of the deposited data

Results flagged for a closer look

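The effect of knockout on 5 members differed between day 3 and day 0 by a test of the difference itself, as the day 3 effect minus the day 0 effect. It was -1.18 ± 0.20 log2 for Irf9 (limma adjusted p = 0.000257), -1.09 ± 0.26 for Irf7 (0.00337), -1.05 ± 0.29 for Irf2 (0.0103), -0.92 ± 0.17 for Irf1 (0.000433) and -0.52 ± 0.16 for Irf5 (0.0183). Irf9 was above control at day 0 and below it at day 3, and Irf7 was above control at both. Taf1 levels of the genotypes overlapped at day 3.

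The effect also differed between day 7 and day 3, again as the later minus the earlier effect. In the macrophage course the difference was 2.23 ± 0.26 for Irf7, 1.33 ± 0.20 for Irf9, 1.22 ± 0.17 for Irf1, 1.13 ± 0.29 for Irf2, 0.71 ± 0.19 for Irf4 and 0.44 ± 0.16 for Irf5. In the granulocyte course it was 1.47 ± 0.23 for Irf4, 1.13 ± 0.25 for Irf1 and 1.09 ± 0.31 for Irf2. The highest limma adjusted p among these was 0.0372, for Irf5. That call was lost after the median-of-ratios scaling (limma adjusted p = 0.162) and without any 1 of 8 libraries, and the Irf5 difference of day 3 and day 0 was lost without any 1 of 3. The 5 megakaryocyte markers, all at 1 TPM or more, also changed sides between these days, in both courses. They summed to 273 to 603 TPM in knockout and 1335 to 2311 TPM in control libraries at day 3. At day 7 of the macrophage course they summed to 1813 to 2260 TPM in knockout and 414 to 435 TPM in control libraries. At day 7 of the granulocyte course the sums were 1211 to 1648 TPM in knockout and 288 to 485 TPM in control libraries. Their part was not tested.

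Between the courses at day 7, the knockout effect in the macrophage minus that in the granulocyte course was 1.75 ± 0.35 for Irf7 and -0.76 ± 0.15 for Irf4 (limma adjusted p = 0.0247 and 0.0216). Both calls depend on single libraries, as given above.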

How the results depend on the processing

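Of the 48 member results for knockout against control, 28 held both their direction and their call under every setting run, as did 53 of 80 for time, 19 of 32 for the courses and 23 of 40 for differences of effects. Irf7 passed as higher at all 6 stages under every setting and without each library. Most changes of sign below were in values near 0 that did not pass; the cause of the changes was not tested. Depth is unknown, so low genes such as Irf2 and Irf4 carry an unquantified counting error, and 3 libraries a group limit what can be told apart.

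With a pseudocount of 0.1 TPM the day 3 minus day 0 difference of effects for Irf4 was 0.17. With 5 TPM the step of Irf2 at day 7 in control granulocyte cultures was -0.0021, and 1 member passed the difference between courses at day 5. For that difference at day 7, 1 member passed with a filter of 5 TPM and 4 in the fit of all 36 libraries. With the groups fitted alone 1 member passed for day 5 against day 3 in knockout granulocyte cultures.

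After median-of-ratios scaling 6 members passed between knockout and control at day 5 of the macrophage course, 5 for day 7 against day 5 in knockout macrophage cultures and 3 between the courses in controls at day 7. Changed signs between knockout and control were Irf1 at day 5 macrophage (0.21), Irf8 at day 7 macrophage (-0.12) and Irf9 at day 7 granulocyte (-0.13). In knockout cells, day 5 against day 3 gave 0.10 for Irf2, 0.16 for Irf3 and 0.18 for Irf9 in the macrophage course and 0.042 for Irf1 in the granulocyte course, and day 7 against day 5 gave -0.049 for Irf3 in the macrophage course. Irf3 was at 0.18 for day 7 against day 5 in control granulocyte cultures, and between the courses at 0.19 at day 5 in knockout, 0.024 at day 5 in control and -0.11 at day 7 in control cells.

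Without S100a8 and S100a9, chosen after seeing the data, 5 members passed for day 7 against day 5 in knockout macrophage cultures and 3 between the courses in controls at day 7. Knockout against control gave 0.070 for Irf5 at day 3 and 0.14 for Irf1 at day 5 macrophage. Day 5 against day 3 gave 0.011 for Irf9 in knockout macrophage, 0.029 for Irf1 in knockout granulocyte, 0.024 for Irf3 in control macrophage and 0.033 for Irf3 in control granulocyte cultures, and day 7 against day 5 gave -0.016 and 0.034 for Irf3 in control macrophage and granulocyte cultures. Between the courses Irf3 was at 0.024 at day 5 in knockout and -0.058 at day 7 in control cells, and the difference of effects at day 7 was -0.018 for Irf2. That difference was -0.046 for Irf1 without knockout replicate 1 at day 7 in both courses, and -0.035 for Irf1 and -0.045 for Irf2 without control replicate 3, both also chosen after seeing the data.

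Leaving out single libraries gave ranges. The members that passed were 3 to 5 at day 3 between knockout and control, 2 to 5 for day 5 against day 3 in control granulocyte cultures, 2 to 5 between the courses in controls at day 7, 3 to 6 for the day 7 minus day 3 difference of effects in the granulocyte course, and 0 to 3 for the difference between courses at day 7. Between knockout and control the range was -0.093 to 0.041 for Irf5 at day 3, -0.12 to 0.091 for Irf1 and -0.0034 to 0.18 for Irf3 at day 5 macrophage, -0.094 to 0.10 for Irf8 at day 7 macrophage, -0.083 to 0.10 for Irf9 at day 5 granulocyte and -0.033 to 0.26 for Irf9 at day 7 granulocyte. For day 3 against day 0 it was -0.42 to 0.035 for Irf2 in knockout cells. For day 5 against day 3 it was -0.21 to 0.012 for Irf9 in knockout macrophage, -0.16 to 0.039 for Irf3 in control macrophage, and -0.13 to 0.046 for Irf3 and -0.071 to 0.063 for Irf5 in control granulocyte cultures. For day 7 against day 5 it was -0.0086 to 0.39 for Irf2 in knockout granulocyte cultures. In control macrophage cultures that step ranged over -0.35 to 0.0027 for Irf2 and -0.019 to 0.19 for Irf3, and in control granulocyte cultures over -0.16 to 0.15 for Irf2, -0.14 to 0.096 for Irf3 and -0.0040 to 0.29 for Irf7. Between the courses Irf3 ranged over -0.050 to 0.029 at day 5 and -0.11 to 0.054 at day 7 in knockout cells, and over -0.12 to 0.094 at day 5 and -0.022 to 0.21 at day 7 in control cells, with -0.16 to 0.20 for Irf2 at day 5 in control cells. The difference of effects between courses was -0.096 to 0.12 for Irf3 at day 5, and at day 7 -0.17 to 0.23 for Irf1, -0.10 to 0.17 for Irf2 and -0.22 to 0.0090 for Irf3.

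With the replicate number as a block, 198 of 200 member results held their direction and their call, and it changed no other call than 2 that were gained: Irf1 between the courses at day 5 in control cells (-0.54, limma adjusted p = 0.0351) and Irf9 for the difference of effects between courses at day 7 (0.83, limma adjusted p = 0.0321).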
